A study of Mus musculus with 44 samples.

Results

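The glucocorticoid receptor and 6 genes tied to its action were followed in mouse liver after an acute treadmill run. They were Nr3c1, which encodes the receptor, Hsd11b1, which encodes the enzyme that regenerates active glucocorticoid inside the liver cell, and 5 genes known to respond readily to the receptor, Sgk1, Fkbp5, Tsc22d3, Zbtb16 and Lpin1. A gene was represented by the probe set that the array annotation assigned to its symbol alone, and by the one with the highest mean where several qualified. Each of the 7 genes had exactly 1 such probe set, so nothing had to be chosen, and all 7 passed the filter on low values, out of 10921 genes that passed and 22180 genes with a probe set of their own.

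Livers came from 44 male C57BL/6N mice aged 11 to 12 weeks, and each liver was measured on its own Affymetrix Mouse Gene 2.1 ST array. For 4 weeks the mice ate either a vitamin E diet, enriched to 2000 IU vitamin E per kg with 100 mg/kg vitamin C added, or a control diet holding 149 IU per kg and no added vitamin C, so vitamin E and vitamin C cannot be told apart. Exercised mice ran for 60 min at 13 m/min on a 14° incline and were killed at once, and sedentary mice stayed in their cages beside the treadmill without food for the same 60 min. There were 12 exercised mice on the vitamin E diet, 12 exercised mice on the control diet, 10 sedentary mice on the vitamin E diet and 10 sedentary mice on the control diet.

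Glucocorticoids, corticosterone in the mouse, are released from the adrenal gland under physical and psychological stress and enter cells freely. In the cytosol the receptor is held by heat shock protein 90 and its cochaperones. Hormone binding releases it to the nucleus, where pairs of receptors bind a palindromic DNA element and switch target genes on, in liver above all genes of glucose production and amino acid breakdown. Some targets feed back on the pathway, such as Fkbp5, whose protein lowers the receptor's affinity for hormone.

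The promoters of the members were read for the letters that the receptor binds. RefSeq promoters on GRCm38.p6, each reaching from 250 bases before to 50 bases after a transcript start, were matched by symbol for 5 of the 7 genes and gave 12 promoters. Zbtb16 and Nr3c1 had no entry in the table used. An arm of the element, AGAACA or its reverse complement TGTTCT, stood in 5 of the 12 promoters, against 19.0% of all 32851 mouse promoters, and belonged to 3 genes. The full palindrome, AGAACA and TGTTCT with any 3 bases between them, was found in only 3 of the 32851 promoters (0.00913%), and a promoter of Sgk1 was among these. That promoter is shown with those of Tsc22d3 and Lpin1 that held an arm, and with the Fkbp5 promoter, which held none. The capitals mark the receptor's letters, and all 4 run 5′ to 3′ on the strand of the gene.
Sgk1 promoter, chr10:21993640-21993939, plus strand: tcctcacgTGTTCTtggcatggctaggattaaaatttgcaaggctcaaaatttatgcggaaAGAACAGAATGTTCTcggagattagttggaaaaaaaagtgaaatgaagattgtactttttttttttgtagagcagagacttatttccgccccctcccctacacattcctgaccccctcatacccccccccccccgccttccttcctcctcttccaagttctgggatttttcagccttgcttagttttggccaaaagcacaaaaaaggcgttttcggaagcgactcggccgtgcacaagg
Tsc22d3 promoter, chrX:140600473-140600772, minus strand: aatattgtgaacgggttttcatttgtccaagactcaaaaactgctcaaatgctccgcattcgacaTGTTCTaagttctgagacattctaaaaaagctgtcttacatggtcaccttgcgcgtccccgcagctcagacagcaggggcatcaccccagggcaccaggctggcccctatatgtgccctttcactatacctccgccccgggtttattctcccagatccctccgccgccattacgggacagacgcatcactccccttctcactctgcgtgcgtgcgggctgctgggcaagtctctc
Lpin1 promoter, chr12:16610917-16611216, minus strand: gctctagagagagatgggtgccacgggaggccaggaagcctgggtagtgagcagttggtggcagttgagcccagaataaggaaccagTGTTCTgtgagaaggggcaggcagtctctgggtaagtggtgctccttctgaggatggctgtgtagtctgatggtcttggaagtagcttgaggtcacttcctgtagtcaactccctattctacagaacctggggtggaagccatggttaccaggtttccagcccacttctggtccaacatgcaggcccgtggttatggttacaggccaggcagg
Fkbp5 promoter, chr17:28486100-28486399, minus strand: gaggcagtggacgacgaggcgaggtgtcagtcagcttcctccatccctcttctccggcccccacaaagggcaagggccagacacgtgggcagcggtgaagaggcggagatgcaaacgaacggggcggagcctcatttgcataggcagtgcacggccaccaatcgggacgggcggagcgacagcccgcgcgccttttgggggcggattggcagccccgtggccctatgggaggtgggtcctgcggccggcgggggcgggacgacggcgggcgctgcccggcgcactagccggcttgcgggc
In the Sgk1 promoter the palindrome began 189 bases before the start, and a further arm lay 242 bases before it. The arm of Tsc22d3 lay 185 bases and that of Lpin1 163 bases before the start. Sgk1 has 6 annotated starts in the table and Tsc22d3 has 3, and the arms in Sgk1 were spread over 3 of its promoters. The E-box of the clock, CACGTG, which reads the same on both strands, was in the Fkbp5 promoter and in the Sgk1 promoter shown, where it overlapped the first receptor arm, against 7.15% of all promoters. The cyclic AMP response element, TGACGTCA, the same on both strands, was in none of the 12 promoters and in 1.79% of all promoters. A match of letters is a description of the window, and the array gave 1 value per gene and none per start.

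Array medians lay between 1.53 and 1.669 on the log2 scale, no arrays were identical, and the summed level of 5 hepatocyte markers lay between 13.71 and 13.91 in every mouse. Markers of T and B cells and of pancreatic acinar cells did not pass the filter. Exercised control mice 3 and 6 stood apart, with a mean log2 level of 6 acute-phase genes of 11.24 and 11.02, against 8.63 to 9.50 in the other 10 mice of that group. Sedentary vitamin E mouse 1, at 10.48 against 8.59 to 9.07 in its group, and exercised vitamin E mouse 2, at 9.93 against 8.78 to 9.05, also stood above their groups. Without all 4 mice, a choice made after seeing the data, Sgk1 still passed with a log2 change by exercise of 1.06 on the vitamin E diet (adjusted p = 0.00113 from limma) and 0.97 on the control diet (adjusted p = 0.00196), and no other member passed on either diet. The animal numbers in the labels began with 24 or 27, and each group held mice of both number series. In bulk liver, fewer cells of a type and less RNA per cell cannot be told apart.

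Sgk1, the serum and glucocorticoid regulated kinase that controls ion channels and transporters, was the member that changed with exercise. On the vitamin E diet its log2 level was 3.57 at the lowest, 4.29 at the median and 4.84 at the highest in exercised mice, against 2.70, 3.09 and 3.37 in sedentary mice. These groups did not overlap, as all 12 exercised mice lay above the highest sedentary mouse, which held for 9 of 18522 probe sets in that comparison (0.0486%). On the control diet it was 3.44, 4.19 and 5.31 in exercised mice, against 2.93, 3.36 and 3.91 in sedentary mice. Here the groups overlapped, with 8 of 12 exercised mice above the highest sedentary mouse and all 12 above the sedentary mean. A gap between the groups was found for 7 probe sets on the control diet (0.0378%).

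The log2 fold change of Sgk1 was 1.10 on the vitamin E diet (standard error 0.167, adjusted p = 0.000207 from limma, permutation p = 2e-05) and 0.91 on the control diet (standard error 0.167, adjusted p = 0.00178, permutation p = 7e-05). Sgk1 was the only one of the 7 members past the adjusted threshold of 0.05 on either diet. Among all probe sets, 0.2% were higher at that threshold with exercise on the vitamin E diet and 0.599% on the control diet. Without the adjustment, 3 members had a p under 0.05 on the vitamin E diet, against 6.16% of all probe sets, and 2 on the control diet, against 9.39%. The median log2 fold change of the 7 members was 0.13 on the vitamin E diet and 0.30 on the control diet, beside -0.02 and 0.02 for all probe sets tested.

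Within each number series of animals the change of Sgk1 kept its direction but missed the adjusted threshold. In mice of the series 24 the log2 fold change was 1.01 on the vitamin E diet (unadjusted p = 6.79e-05, adjusted p = 0.105) and 0.63 on the control diet (unadjusted p = 0.0041, adjusted p = 0.379). In mice of the series 27 it was 1.19 on both diets, with an adjusted p of 0.14 on the vitamin E diet and 0.129 on the control diet. A contrast of exercise averaged over both diets was chosen after seeing the data, and it put Sgk1 at 1.01 (95% interval 0.77 to 1.24, adjusted p = 1.9e-07), a 2.01-fold difference. In that contrast Sgk1 also passed within the series 24 (0.82, adjusted p = 0.00833) and within the series 27 (1.19, adjusted p = 0.00342).

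**Figure D1:**
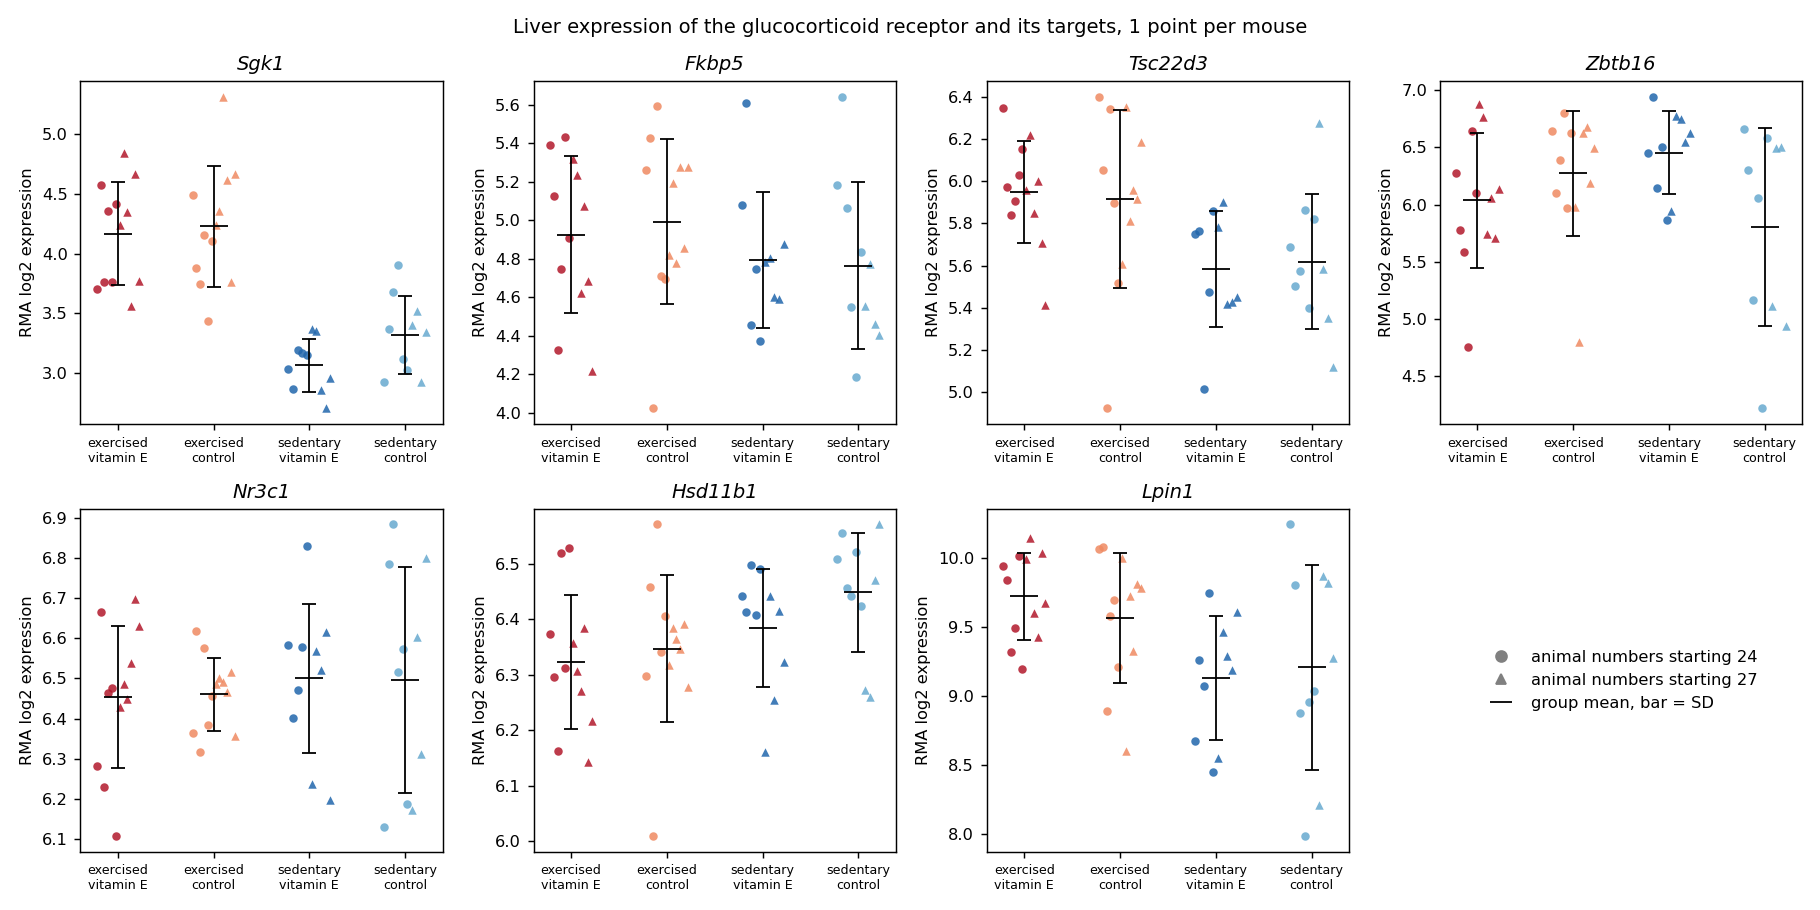
RMA log2 expression (vertical axes) of the 7 genes in each of 44 livers, by diet and exercise group, with circles for animal numbers starting 24, triangles for those starting 27, and lines for the group mean and its SD. In the Sgk1 panel the exercised vitamin E mice lie above 3.5 and the sedentary vitamin E mice below 3.4, while the groups of every other gene overlap.

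Tsc22d3 encodes GILZ, a leucine zipper protein that restrains NF-kappaB and AP-1 in immune cells. Its log2 level in exercised mice was 5.41, 5.97 and 6.35 (lowest, median, highest) on the vitamin E diet and 4.92, 5.94 and 6.40 on the control diet. In sedentary mice it was 5.01, 5.61 and 5.90 on the vitamin E diet and 5.12, 5.58 and 6.28 on the control diet. The exercised medians lay higher, and the groups overlapped on both diets. The log2 fold change was 0.37 on the vitamin E diet (unadjusted p = 0.0112, adjusted p = 0.526, permutation p = 0.00306) and 0.30 on the control diet (unadjusted p = 0.0374, adjusted p = 0.5, permutation p = 0.0842), so neither passed. Averaged over both diets, the difference was 0.33 (95% interval 0.13 to 0.53, adjusted p = 0.0947). Exercised control mouse 3, with high acute-phase transcripts, had the lowest Tsc22d3 of all 44 mice, at 4.92, and mouse 6 had 5.52. Without these mice the averaged difference was 0.40 and passed the adjusted threshold (adjusted p = 0.00495). Without all 4 mice of high acute-phase level it was 0.41 (adjusted p = 0.00832). The mice were picked by values of the same arrays. Mice 3 and 6 both lay below their group's Tsc22d3 mean of 5.91, so leaving them out raises that mean. Over 12 alternatives the averaged difference lay between 0.32 and 0.41, with adjusted p from limma between 0.00495 and 0.643. The part of the acute-phase transcripts in this difference was not tested.

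Fkbp5, the cochaperone of the feedback loop, had broad and overlapping values. It was 4.22, 4.99 and 5.43 (lowest, median, highest log2 level) in exercised vitamin E mice and 4.02, 5.02 and 5.59 in exercised control mice. Sedentary vitamin E mice had 4.37, 4.77 and 5.61, and sedentary control mice had 4.18, 4.66 and 5.64. No exercised mouse exceeded the highest sedentary mouse on either diet. The log2 fold change with exercise was 0.13 on the vitamin E diet (95% interval -0.22 to 0.48) and 0.23 on the control diet (95% interval -0.12 to 0.58), with adjusted p of 0.981 and 0.725. Exercised control mouse 3 was again the lowest of all 44 mice, at 4.02, and without mice 3 and 6 the change on the control diet was 0.36 (unadjusted p = 0.04, adjusted p = 0.51), which did not pass. The averaged difference of 0.18 had an interval from -0.07 to 0.43, which includes 0, and without mice 3 and 6 it was 0.24 (adjusted p = 0.5).

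Lpin1 encodes lipin 1, the phosphatidate phosphatase of triglyceride synthesis, which also acts as a coactivator of fatty acid oxidation genes in the liver nucleus. Its log2 level was 9.20, 9.76 and 10.14 (lowest, median, highest) in exercised vitamin E mice, against 8.45, 9.22 and 9.75 in sedentary vitamin E mice. On the control diet it was 8.60, 9.71 and 10.08 in exercised mice, against 7.99, 9.16 and 10.24 in sedentary mice. On the vitamin E diet all 12 exercised mice lay above the sedentary mean, and on the control diet 10 of 12 did, yet the groups overlapped on both diets. The log2 fold change was 0.59 on the vitamin E diet (standard error 0.212, unadjusted p = 0.00792, adjusted p = 0.476, permutation p = 0.00177) and 0.36 on the control diet (unadjusted p = 0.102, adjusted p = 0.626). The averaged difference was 0.47 (95% interval 0.17 to 0.78, unadjusted p = 0.00296, adjusted p = 0.148) and did not pass.

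Nr3c1, the receptor itself, kept to a narrow range. Group means of its log2 level were 6.45 ± 0.18 and 6.46 ± 0.09 in exercised mice on the vitamin E and the control diet (SD, n = 12 each), and 6.50 ± 0.19 and 6.50 ± 0.28 in the corresponding sedentary mice (SD, n = 10 each). The log2 fold change with exercise was -0.05 on the vitamin E diet (95% interval -0.22 to 0.12) and -0.04 on the control diet (95% interval -0.21 to 0.13). In the averaged contrast, chosen after seeing the data, it was -0.04, with a 95% interval from -0.16 to 0.08 (0.89-fold to 1.06-fold). Over 13 alternatives the change on the vitamin E diet lay between -0.20 and 0.11. These arrays measure transcript and not the amount of receptor protein, its location or its hormone.

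Hsd11b1, the reductase that turns inactive 11-dehydrocorticosterone into corticosterone, was slightly lower in exercised mice without passing the adjusted threshold. Its log2 level was 6.32 ± 0.12 in exercised and 6.38 ± 0.11 in sedentary mice on the vitamin E diet, and 6.35 ± 0.13 in exercised and 6.45 ± 0.11 in sedentary mice on the control diet (SD, n = 12 exercised and 10 sedentary per diet). On each diet 10 of 12 exercised mice lay below the sedentary mean. The differences were -0.06 (unadjusted p = 0.281) and -0.10 (unadjusted p = 0.0812, permutation p = 0.061) on the vitamin E and the control diet. Averaged over both diets the difference was -0.08 (unadjusted p = 0.048, adjusted p = 0.532). In that averaged contrast 4 members had an unadjusted p under 0.05, against 9.26% of all probe sets, and 1 member passed the adjusted threshold upward, against 0.961%.

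**Figure D2:**
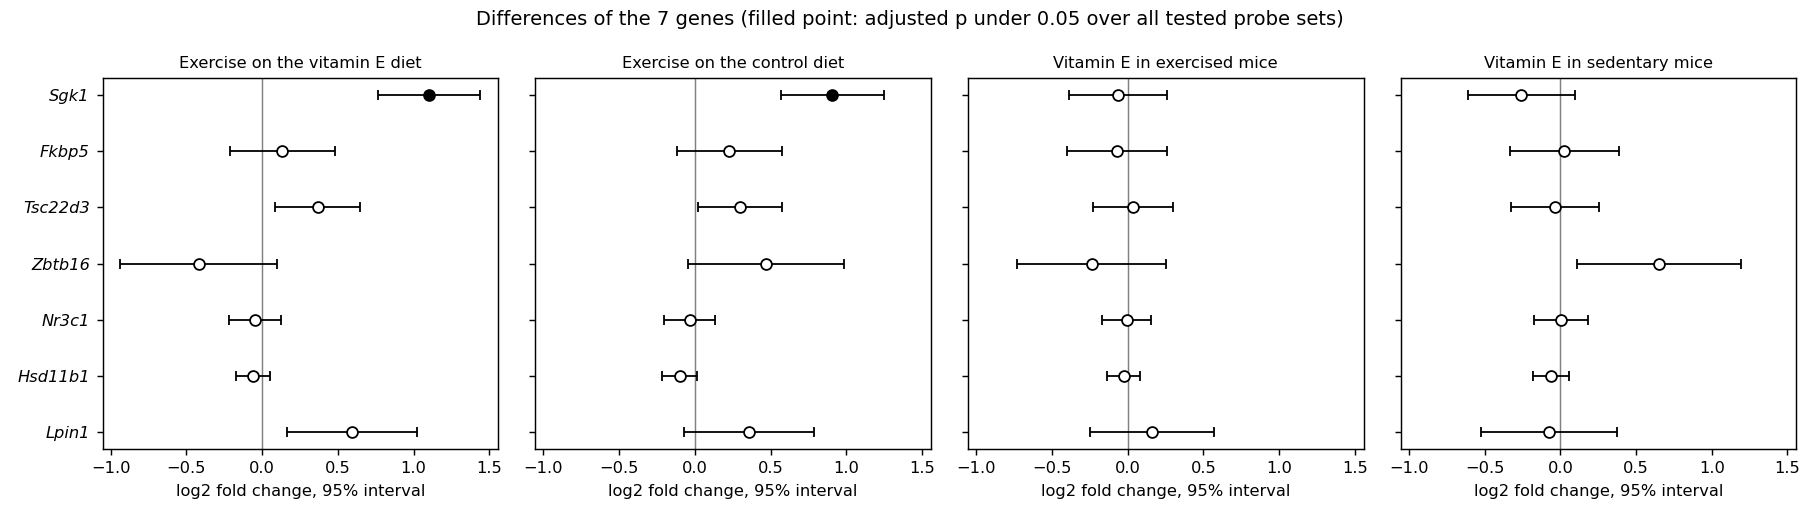
Log2 fold change (horizontal axis) and 95% interval of the 7 genes in the 4 comparisons, with a filled point where the adjusted p over all 18522 probe sets was under 0.05. Only the Sgk1 points for exercise are filled, at 1.10 on the vitamin E diet and 0.91 on the control diet.

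Zbtb16 encodes PLZF, a zinc finger repressor that glucocorticoids induce in many tissues, and it was the member whose values differed most with the combination of diet and exercise. Its log2 level was 4.75, 6.08 and 6.88 (lowest, median, highest) in exercised vitamin E mice and 4.80, 6.44 and 6.80 in exercised control mice. It was 5.87, 6.53 and 6.94 in sedentary vitamin E mice and 4.22, 6.18 and 6.66 in sedentary control mice. All 4 groups overlapped. The sedentary control mice were split, with 4 mice between 4.22 and 5.16 and 6 mice between 6.06 and 6.66, and both number series had mice in either range. The exercise difference was -0.42 on the vitamin E diet (unadjusted p = 0.11) and 0.47 on the control diet (unadjusted p = 0.074), and neither passed.

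The interaction, the exercise difference on the vitamin E diet minus that on the control diet, was -0.89 for Zbtb16 (standard error 0.363, 95% interval -1.62 to -0.16, unadjusted p = 0.0185, adjusted p = 0.9). It was the only member with an unadjusted interaction p under 0.05, against 5.49% of all probe sets, and no probe set passed the adjusted threshold (0%). Within the series 24 the interaction was -1.12 (unadjusted p = 0.0417) and within the series 27 it was -0.67 (unadjusted p = 0.207). The part of it that lay in sedentary mice was a difference of 0.65 between the diets (unadjusted p = 0.0194, adjusted p = 1, permutation p = 0.0412). All 10 vitamin E mice lay above the control mean of 5.80, but 7 above the control median of 6.18 and 3 above the highest control mouse. Of the other members, Sgk1 had an interaction of 0.19 (95% interval -0.28 to 0.67), and the remaining 5 had unadjusted p between 0.435 and 0.93.

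Macrophage markers differed in the same direction as Zbtb16 in this interaction, and so did other marker lists. The median interaction was below 0 for endothelial (-0.25), neutrophil (-0.28), cholangiocyte (-0.17) and acute-phase genes (-0.17). It was also below 0 for the adipocyte marker (-0.46) and, barely, for hepatocyte markers (-0.0045). Only 2 neutrophil, 2 cholangiocyte and 1 adipocyte marker passed the filter. The median was above 0 for stellate cell and fibroblast markers (0.16) and the muscle marker (0.01). All 6 markers of Kupffer cells and macrophages passed the filter, and none passed the adjusted threshold. All 6 had an interaction below 0, with a median of -0.70, beside -0.04 for all probe sets. Their summed log2 level ranged from 6.82 to 9.04 in exercised vitamin E mice, from 7.09 to 9.41 in exercised control mice, from 6.88 to 9.17 in sedentary vitamin E mice and from 6.56 to 8.34 in sedentary control mice. The highest sums of the vitamin E groups were those of exercised mouse 2 and sedentary mouse 1, and that of the exercised control group was mouse 6. Without these mice and exercised control mouse 3 the Zbtb16 interaction was -0.82 (unadjusted p = 0.0454, adjusted p = 0.839). The markers' part in the Zbtb16 difference was not tested.

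The vitamin E diet was then compared with the control diet at each activity level, the question being whether the diet altered the receptor's targets. In exercised mice no member reached an unadjusted p under 0.05, against 5.6% of all probe sets, and no probe set passed the adjusted threshold (0%). The difference was -0.06 for Sgk1 (95% interval -0.39 to 0.26), -0.07 for Fkbp5 (-0.40 to 0.26), 0.04 for Tsc22d3 (-0.23 to 0.30) and 0.16 for Lpin1 (-0.25 to 0.57). It was -0.01 for Nr3c1 (-0.17 to 0.16), -0.02 for Hsd11b1 (-0.13 to 0.08) and -0.24 for Zbtb16 (-0.73 to 0.26). Without exercised control mice 3 and 6 the difference was -0.12 for Sgk1, -0.20 for Fkbp5, -0.10 for Tsc22d3 and 0.06 for Lpin1, and none of these passed. For Sgk1 the interval spans 0.766-fold to 1.20-fold, so a diet effect on the exercised level as large as its exercise difference lies outside it, whereas smaller differences lie within.

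In sedentary mice the diet comparison gave an unadjusted p under 0.05 for 1 member, Zbtb16, against 4.77% of all probe sets, and again no probe set passed the adjusted threshold (0%). Sgk1 was lower by 0.26 on the vitamin E diet, with an interval from -0.61 to 0.10 (unadjusted p = 0.149, permutation p = 0.0543) and with 8 of 10 vitamin E mice below the control mean. Nr3c1, Tsc22d3 and Fkbp5 differed by 0.00, -0.03 and 0.03, Hsd11b1 by -0.06 and Lpin1 by -0.08, each with an interval that included 0. The comparisons by diet share their mice with the comparisons by exercise, so they are not separate evidence.

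A list of 26 other liver targets of the receptor was set beside the 7 members, and all 26 passed the filter. The list was drawn up with earlier results of these data known, so its counts are a description and not separate evidence. On the vitamin E diet 6 of 26 were higher with exercise at the adjusted threshold, against 0.2% of all probe sets, and none was lower. The median log2 fold change was 0.46, beside -0.02 for all probe sets. The change was positive in 25 of 26, and the repressor Bcl6 had -0.88 (unadjusted p = 0.0143, adjusted p = 0.58 from limma). On the control diet 13 of 26 were higher at that threshold, against 0.599%, none was lower, and the median was 0.55, beside 0.02. There the change was positive in 24 of 26, and Bcl6 had -0.35. When only the compared groups were fitted, 8 targets were called on each diet. That fit called 46 of all probe sets on the vitamin E diet and 65 on the control diet. The stress-induced mTORC1 inhibitor Ddit4 changed by 2.75 and 2.65 on the vitamin E and the control diet. The MAP kinase phosphatase Dusp1 changed by 1.02 and 1.45, and the insulin-like growth factor carrier Igfbp1 by 1.63 and 1.57. The mRNA-destabilizing protein Zfp36 changed by 0.61 and 0.77, the regulator of G protein signalling Rgs2 by 1.08 and 1.15, and the tyrosine aminotransferase Tat by 0.33 and 0.38. These 6 passed on both diets, and the exercised and sedentary mice did not overlap on either diet for Ddit4, Dusp1 and Zfp36, against 0.0486% of all probe sets on the vitamin E diet and 0.0378% on the control diet.

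The other 7 targets called on the control diet were the transcription factor Cebpd, the insulin receptor adaptor Irs2, the clock repressor Per1, the EGF receptor inhibitor Errfi1, the metallothionein Mt2, the pyruvate dehydrogenase kinase Pdk4 and the coactivator Ppargc1a. On the vitamin E diet their log2 fold changes lay between 0.18 and 1.42 with adjusted p between 0.0681 and 0.794, and none of the 26 targets had an interaction past the adjusted threshold. The target with the smallest interaction p was Dusp1 (-0.43, unadjusted p = 0.0396, adjusted p = 0.9). In exercised mice the diet difference of Dusp1 was 0.04, and in sedentary mice it was 0.47 (unadjusted p = 0.00297, adjusted p = 0.803). In sedentary mice 2 of the 26 targets had an unadjusted p under 0.05 for the diet, against 4.77% of all probe sets, Dusp1 and Bcl6, a transcriptional repressor (0.87, unadjusted p = 0.0197, adjusted p = 1). In exercised mice the diet difference had a median of -0.08 over the 26 targets, beside -0.02 for all probe sets, and no target had an unadjusted p under 0.05.

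**Figure D3:**
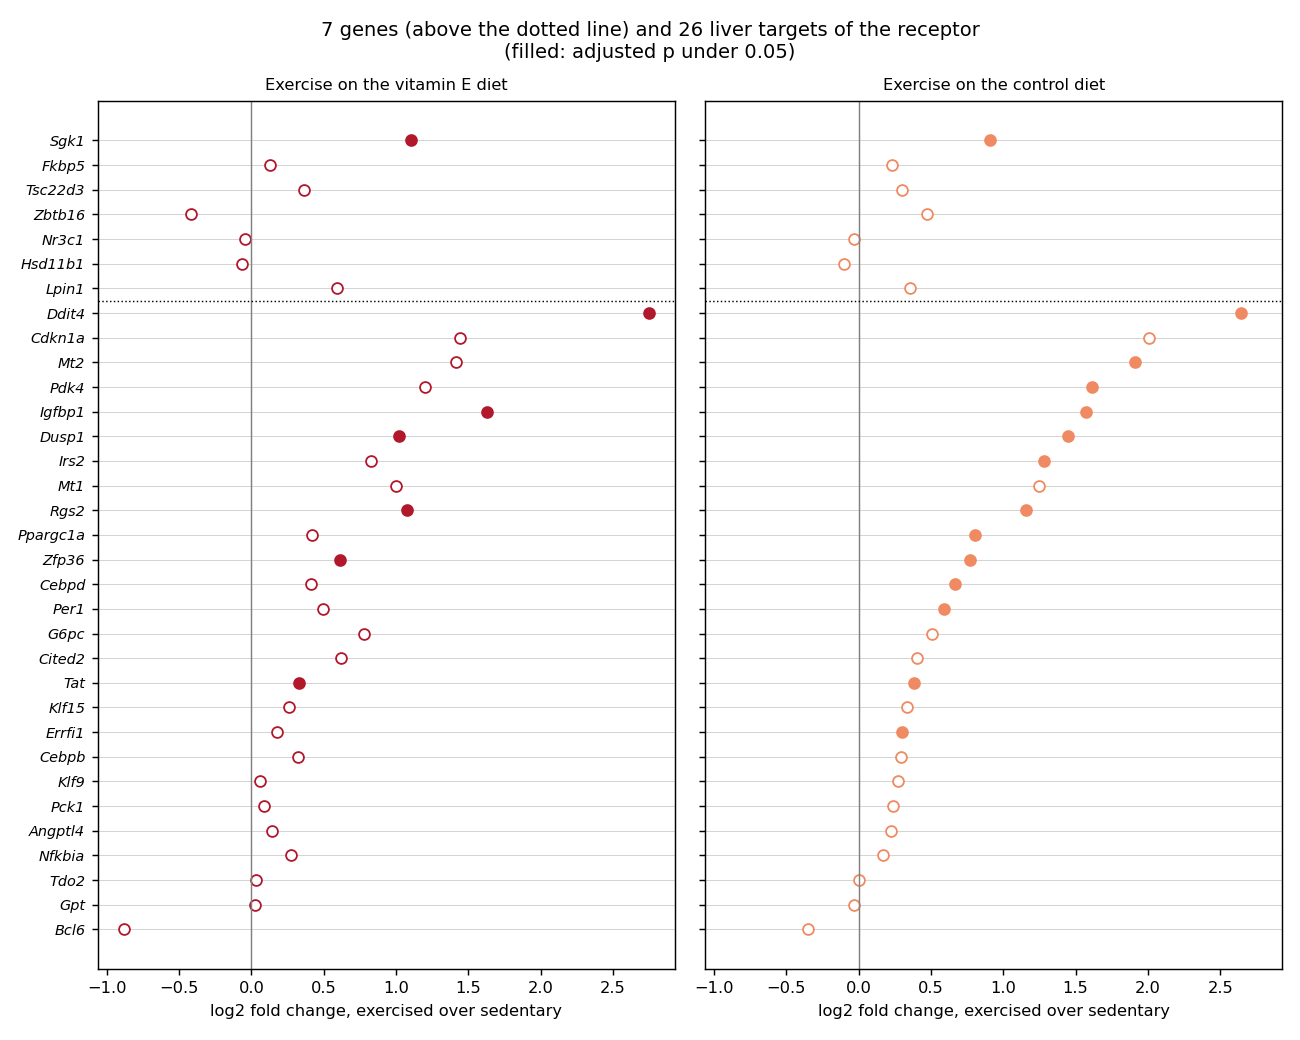
Log2 fold change with exercise (horizontal axis) of the 7 genes, above the dotted line, and of 26 other liver targets of the receptor, on the vitamin E diet at the left and the control diet at the right, with filled points where the adjusted p was under 0.05. Sgk1 and 6 targets are filled at the left, and Sgk1 and 13 targets at the right, with Ddit4 farthest from 0 on both diets.

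The machinery around the receptor gave no calls. None of 9 measured chaperones and cofactors passed the adjusted threshold with exercise on either diet, and none had an unadjusted p under 0.05 there. The mineralocorticoid receptor Nr3c2, which also binds corticosterone, changed by 0.08 on the vitamin E diet and by -0.34 on the control diet (unadjusted p = 0.0713), and the cochaperone Fkbp4 by -0.07 and -0.11. Of 6 measured genes of glucocorticoid supply and clearance none passed. H6pd, the enzyme that feeds NADPH to the Hsd11b1 reductase, changed by -0.13 and 0.15 on the vitamin E and the control diet. Its interaction had an unadjusted p of 0.0421 (adjusted p = 0.9). The plasma carrier Serpina6 changed by -0.12 and -0.10. Abcb1a, an efflux pump that accepts steroids, changed by 0.17 and by 0.53 (control diet, unadjusted p = 0.0312, adjusted p = 0.465). Akr1c6 changed by -0.05 and by -0.24 (control diet, unadjusted p = 0.0494, adjusted p = 0.532). On the control diet 9.39% of all probe sets had an unadjusted p under 0.05.

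Relatives of the members also stayed under the threshold. None of 6 lipin partners of triglyceride synthesis was called. Lpin2, a phosphatase of the lipin family, changed by 0.31 on the vitamin E diet and 0.30 on the control diet (unadjusted p = 0.025 and 0.0265). None of 7 measured relatives of the kinase, zipper, zinc finger and cochaperone members was called, with Tsc22d2 at 0.15 and 0.32. Of 9 measured clock genes, Nr1d1, a repressor within the clock, changed by -0.90 (adjusted p = 0.219) and -0.96 (adjusted p = 0.0836) with exercise on the vitamin E and the control diet. It fell in the averaged contrast by 0.93 (adjusted p = 0.00224). The clock genes' part in the values of the members was not tested.

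The members were next compared mouse by mouse, after each group's mean was subtracted so that the group differences did not enter. Of 21 pairs 14 correlated positively, with Pearson r between -0.24 and 0.586, and 2 pairs passed the threshold after adjustment over the 21. Permutation shuffled mice within groups.

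Fkbp5 and Tsc22d3 varied together (r = 0.586, permutation p = 8e-05, adjusted p = 0.00168, rho = 0.566, permutation p = 0.00014, adjusted p = 0.00294). Without the 2 mice farthest from the median of Fkbp5, r was 0.564. Within groups it was 0.792 in exercised vitamin E mice and 0.897 in exercised control mice, against 0.378 in sedentary vitamin E mice and 0.102 in sedentary control mice, and the difference between these values was not tested. It was 0.6 in the series 24 and 0.611 in the series 27. Exercised control mouse 3 was lowest for both genes, and without mice 3 and 6 r was 0.466 (permutation p = 0.00309, adjusted p = 0.0216).

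Zbtb16 and Lpin1 formed the other pair (r = 0.498, permutation p = 0.00299, adjusted p = 0.0314, rho = 0.501, permutation p = 0.00204, adjusted p = 0.0176). Without the 2 mice farthest from the median of Zbtb16, r was 0.443. It was positive in every group, at 0.542 in exercised vitamin E mice, 0.405 in exercised control mice, 0.732 in sedentary vitamin E mice and 0.496 in sedentary control mice. By number series it was 0.329 and 0.71.

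**Figure D4:**
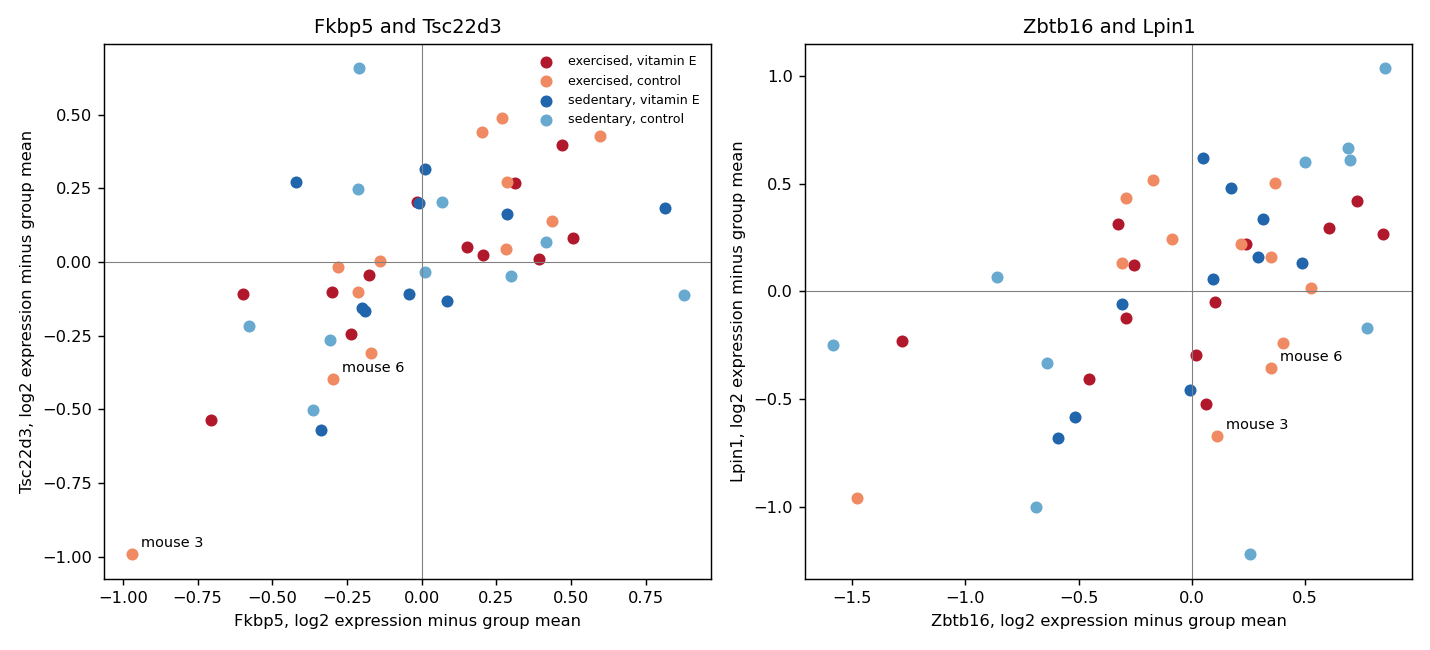
Log2 expression minus the group mean in each of 44 mice, for Tsc22d3 (vertical) against Fkbp5 (horizontal) at the left and Lpin1 against Zbtb16 at the right, coloured by group, with exercised control mice 3 and 6 named. The points run from lower left to upper right in both panels, with r of 0.586 and 0.498.

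Fkbp5 and Zbtb16 passed by rank only (rho = 0.469, permutation p = 0.00252, adjusted p = 0.0176), as r was 0.406 with an adjusted p of 0.0706 by permutation. Fkbp5 with Hsd11b1 (r = 0.372) and with Lpin1 (r = 0.367) had an adjusted permutation p of 0.0814 each. Sgk1, the member with the exercise response, went with none of the others, with r between -0.112 and 0.224. The receptor's transcript did not correlate past the threshold with any target. Its r was -0.24 with Zbtb16, 0.207 with Sgk1, -0.197 with Tsc22d3, 0.05 with Lpin1 and 0.033 with Fkbp5.

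**Figure D5:**
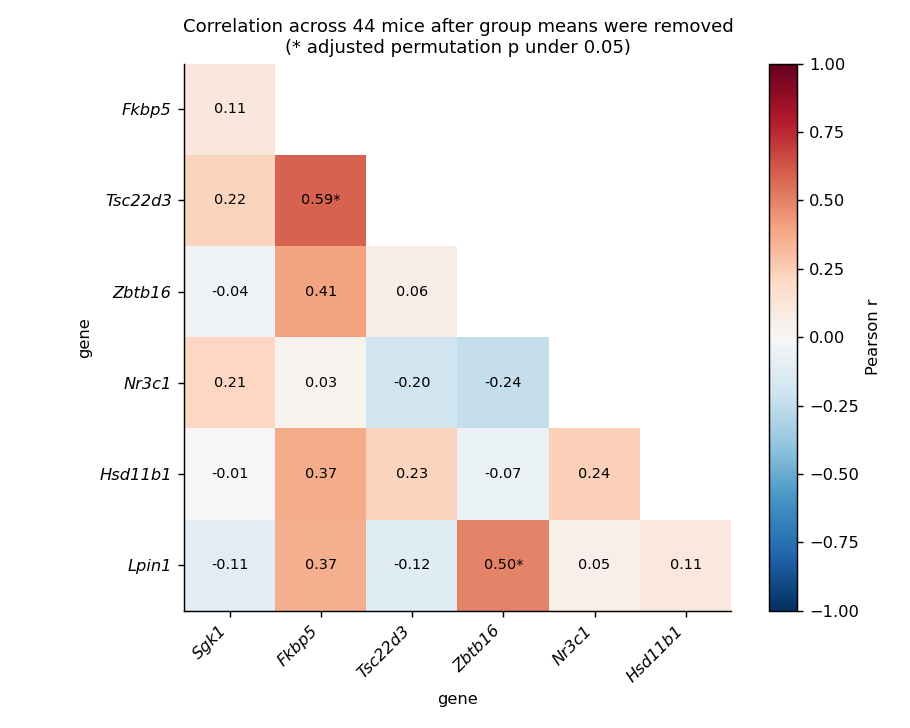
Pearson r between the 7 genes over 44 mice after removal of group means, as colour and printed value, with an asterisk where the permutation p adjusted over 21 pairs was under 0.05. The asterisks stand at Fkbp5 with Tsc22d3 (0.59) and Zbtb16 with Lpin1 (0.50), and the Sgk1 column is pale throughout.

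The transcripts most like each member over the 44 mice, by Pearson r with group means removed, were taken from all genes that passed the filter and are given as a description. For Fkbp5 they were St3gal5 (0.788), Ppp1r3c (0.749) and Shld2 (0.741). For Tsc22d3 they were Fam214a (0.704), Ppp1r3c (0.669) and Akr1d1 (0.641), so Ppp1r3c, a glycogen-targeting subunit of protein phosphatase 1, was near both members of the correlated pair. Sgk1 was closest to Cth (0.696), the cystathionine gamma-lyase of cysteine synthesis, then to Reps1 (0.619) and Slc25a22 (0.615). Lpin1 was closest to Onecut1 (0.759), a hepatocyte transcription factor, then to D230025D16Rik (0.724) and Rnf217 (0.714).

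For the other 3 members the closest transcripts lay lower or were of another kind. Hsd11b1 was nearest to Macrod1 (0.65), Cnn3 (0.628) and Tdo2 (0.611), the last being the tryptophan dioxygenase and itself a listed target. Zbtb16 had Smoc1 (0.582), Apoa5 (0.574) and Tbc1d8 (0.553), and Nr3c1 had Mier1 (0.554), Slc35d1 (0.522) and Lysmd1 (0.521). No likeness was tested, and none of the 7 members was among another member's 3 nearest.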

How the data were processed

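RNA of each liver was hybridised to 1 Affymetrix Mouse Gene 2.1 ST array, and the authors normalized all arrays together by RMA in Affymetrix Expression Console. The deposited values are log2 expression values and were used as deposited. Following the study's methods, a probe set was kept where its linear expression averaged over 4 in any group (18522 of 41345). A joint model of the 4 groups was fitted by limma 3.58.1 (R 4.3.3), and p was adjusted by Benjamini-Hochberg over all kept probe sets, two-sided, at 0.05. Tested on simulated data for exercise on the control diet over 18522 probe sets, the fit recovered 50% of probe sets changed by 0.5 and 85% of those changed by 1 (log2). Permutation tests used 100000 shuffles in R or Python 3.11.15. The averaged exercise contrast, the permutation tests of single genes and the fit without 4 mice of high acute-phase level were added after seeing the data.

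The members and lists were chosen with earlier results of these data known. Named genes were the members, from each list up to 4 genes with the smallest p for exercise on the control diet and any gene called, and the 3 genes most like each member. Bcl6 falls outside this rule and was named after its values were seen. Mice were separate animals, and their number limits the precision. Alternatives covered scaling, filters, array weights, variance settings, samples fitted, animal series and the replicate number.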

Additional observations from a re-analysis of the deposited data

Results flagged for a closer look

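The response of Zbtb16 to exercise differed between the diets by an interaction of -0.89 on the log2 scale (unadjusted p = 0.0185), which did not pass after adjustment over all probe sets in limma (adjusted p = 0.9). Over 12 alternatives it lay between -1.12 and -0.67, with adjusted p between 0.819 and 0.999. In the sedentary groups of 10 mice, no member had a mouse far from the rest by Dixon's gap test, over 14 groups of values examined. The exercised groups of 12 mice were not examined by it. There the lowest Zbtb16 value was 4.80 in control mouse 8, with the next at 5.97, and 4.75 in vitamin E mouse 4, with the next at 5.58.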

How the results depend on the processing

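Of 520 alternative values of single members, 486 kept their direction and their side of the threshold. Sgk1 and Fkbp5 fell below a filter of 5 on the mean log2 level, so 0 members were called under it in any exercise contrast, and 0 were called on either diet within the animal series 24 or 27. Either series alone called fewer probe sets, 7 and 4 on the vitamin E diet, 10 and 16 on the control diet and 45 and 60 in the averaged contrast for the series 24 and 27. They called 3 and 2 liver targets on the vitamin E diet, and 3 in either series on the control diet. With only the compared groups fitted, 65 probe sets and 8 liver targets were called on the control diet, against 126 and 13 as reported, but 46 probe sets and 8 liver targets on the vitamin E diet, against 43 and 6. Without the filter 78 probe sets were called on the control diet. In the averaged contrast 2 members were called with array weights or without exercised control mice 3 and 6, alone or with exercised vitamin E mouse 2 and sedentary vitamin E mouse 1, and Tsc22d3 joined Sgk1 there (0.39, 0.40 and 0.41). Leaving out those 4 mice was chosen after seeing the data, and it gave 1 probe set called for the diet in sedentary mice, against 0. With series means removed, 4 pairs of members correlated past the threshold instead of 2. The causes were not tested.

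The 27 values that changed sign all belonged to comparisons in which the member was not called. After quantile normalization Nr3c1 differed by the diet by 0.0043 in exercised and -0.014 in sedentary mice, with an interaction of 0.0183. With array weights Tsc22d3 had -0.0463 by the diet in exercised mice and an interaction of -0.0074, and Zbtb16 -0.0103 in the averaged contrast. In the series 24 the diet difference in exercised mice was 0.1273 for Sgk1, 0.0362 for Fkbp5 and 0.0182 for Hsd11b1, and Fkbp5 had -0.0572 in sedentary mice and an interaction of 0.0933. In the series 27 Nr3c1 had 0.1107 for exercise on the vitamin E diet, 0.054 averaged, 0.0688 and -0.0446 for the diet in exercised and sedentary mice and 0.1135 as interaction. Tsc22d3 had -0.115, 0.0144 and -0.1294 there, Zbtb16 0.0897 for the diet in exercised mice, and Sgk1 an interaction of -0.0042. Without mice 3 and 6 Tsc22d3 had -0.1035 for the diet in exercised mice and an interaction of -0.0696. Without the 4 mice it had -0.1058 and -0.0537, and by the diet in sedentary mice Fkbp5 had -0.0045 and Nr3c1 -0.0052.

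Same-numbered mice of different groups mostly shared the number series of animals as well, and 0 of these pairs deviated together with a correlation above 0.1. Between the exercised groups the pairs correlated at 0.021 to 0.087, and 5 of 12 vitamin E mice were most like their own number. That held for 3, 1 and 0 of 10 mice for exercise on the control diet, exercise on the vitamin E diet and the diet in sedentary mice. With the replicate block, 41 probe sets were called on the vitamin E diet and 114 on the control diet, and 1 member on each, and no call of a member changed. Averaging several probe sets per gene gave nothing to compare, since each member had 1. No single mouse was left out in turn, as each group held at least 10.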
